A study of Arabidopsis thaliana with 11 samples.

Results

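The transcripts described here were low in the stigma of Arabidopsis thaliana and high in both the ovary and the whole seedling. They are 52 of the 22746 probe sets on the Affymetrix ATH1 array that are not controls, or 0.229%. They were chosen by their measured tissue means. A probe set was taken if its ovary mean and its seedling mean were each at least 4 times its stigma mean and lay within 2-fold of each other. Means were taken over the arrays of a tissue on the deposited linear signal scale, and a mean under 50 was set to 50. The lowest-numbered probe sets, which include organelle genes, were left out, and so were gene symbols of several large families such as the expansins and cytochromes P450. Because the rule used all 3 tissue means, the differences between tissues given below for these transcripts describe the choice and carry no test. Counts of calls between tissues are given for the 52 only as a description of the choice. For these transcripts, the tests that bear on something the rule did not use are those between scanning runs, including whether the difference between stigma and ovary changed from run to run.

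The study measured RNA of the accession Landsberg erecta (Ler) on 1-colour arrays, 3 of stigma, 4 of ovary and 4 of seedling RNA. Stigma and ovary came from pistils of buds emasculated at stage 8 and taken 1 day later, with the stigma cut from the ovary by scissors, and seedlings were whole plants 10 days old on Murashige and Skoog plates. The tissue of an array was read from its title, since the longer description on stigma samples is the one used for ovary. Separate plantings are not mentioned for arrays of the same tissue, and p-values therefore measure only the spread between these samples, part of which may be technical.

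The stigma is the receptive tip of the pistil, an epidermis of elongated papilla cells that capture pollen, hydrate it and let its tube enter. The ovary below it holds the valves, the septum, the transmitting tract and the ovules, and its outer epidermis forms stomata. A seedling holds leaf, hypocotyl and root tissue, and it shares with the ovary cell types such as guard cells, green parenchyma and branching veins.

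All arrays had been scaled by the authors to a common trimmed mean. The stigma markers SLR1 (AT3G12000) and AT2G33850 were highest on the stigma arrays, with SLR1 at 12910 to 14659 there, 124 to 1832 on the ovary arrays and 46.4 to 68.4 on the seedling arrays. Ovary 1 gave the high ovary value of SLR1, and the other 3 ovary arrays lay between 124 and 316.4. The ovule gene INO was at 136.9 to 247.4 on stigma arrays and 515.9 to 605.1 on ovary arrays. The GAPDH control probe sets at the 3' and 5' ends measure how complete the labelled RNA was. Their log2 ratio, 3' over 5', averaged 1.495 ± 0.67 in stigma (SD, n = 3), 0.82 ± 0.19 in ovary and 0.38 ± 0.13 in seedling (SD, n = 4 each). It thus ran in the order stigma, ovary, seedling. Stigma 1 had a ratio of 2.27, against 1.09 and 1.12 on the other stigma arrays.

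The 52 transcripts were dim in the stigma and moderately to strongly expressed elsewhere. Their stigma means ran from 8.20 to 907.9 with a median of 89.7, their ovary means from 201.05 to 6449 with a median of 648.7, and their seedling means from 229 to 7909 with a median of 541. Among all probe sets of the array, the median member stood at the 30.3rd percentile in stigma, the 75.4th in ovary and the 72.0th in seedling. The stigma mean was under 50 for 16 of the 52, and for those a ratio is a lower bound, written as "at least". By array, the median signal of the 52 was 114.4, 69.8 and 80.6 on the stigma arrays, 581.9, 707.5, 568.8 and 594.3 on the ovary arrays, and 527.6, 573.4, 591.3 and 496.6 on the seedling arrays. No stigma array came near an array of another tissue by this median. In RNA of a whole tissue, fewer cells that express a gene and less of its RNA in each cell cannot be told apart.

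The smaller of each transcript's ratios, ovary over stigma or seedling over stigma, had a median of 5.20 and ran from 4.02 to 43.3. It lay between 4 and 5 for 23 transcripts, between 5 and 8 for 26, and at 8 or above for 3. On the scale of log2(signal + 17.2), which understates differences of dim transcripts, the median difference was -2.52 for stigma minus ovary and -2.67 for stigma minus seedling. Over all 15524 probe sets tested, the same medians were -0.07 and 0.04. Testing was limited to probe sets with a signal above 144.2 on 3 or more arrays. All 52 passed that filter, and they did so through the ovary and seedling arrays on which the rule had required them to be high. A call required an adjusted p under 0.05 in limma and a difference of at least 2-fold. All 52 were called lower in stigma than in ovary and in seedling, a count that the rule fixes, against 9.51% of all tested probe sets for the ovary comparison, 15.1% for the seedling comparison and 3.9% for both.

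**Figure D1:**
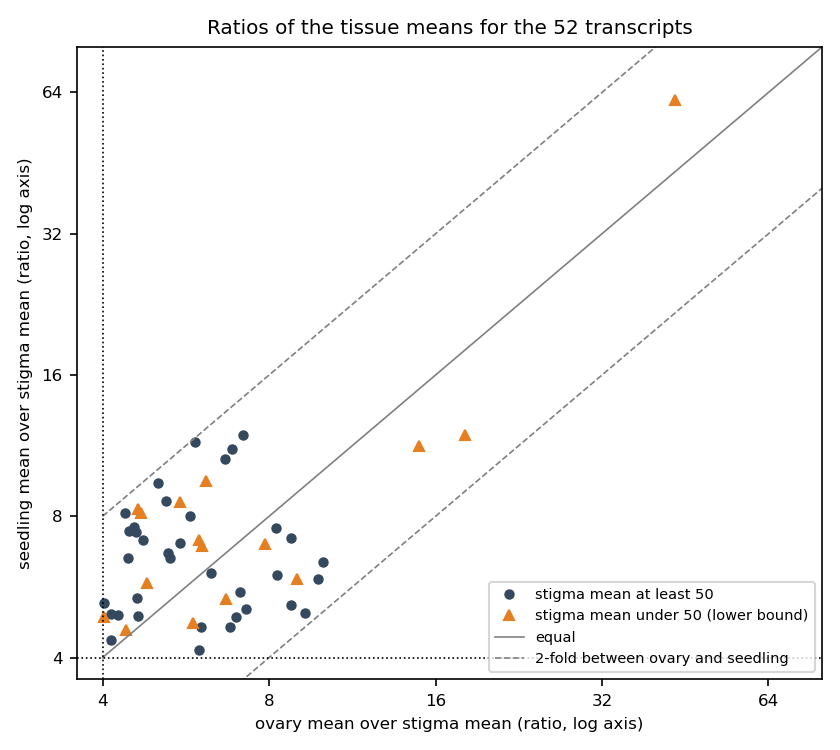
Ratios of tissue means for the 52 transcripts, ovary over stigma on the horizontal axis and seedling over stigma on the vertical axis, both on log axes. Dotted lines mark the ratio of 4 and dashed lines the 2-fold range between ovary and seedling that the rule required, and triangles are lower bounds because the stigma mean was under 50. Most points lie between 4 and 8 on at least 1 axis, and the point at the top right has ratios of at least 43.3 and 61.7.

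The stigma arrays lay below all 8 ovary and seedling arrays for 47 of the 52 transcripts, against 10.2% of all tested probe sets, and this count too follows largely from the rule. The lowest ovary or seedling array exceeded the highest stigma array by a median of 2.82-fold, with a range of 0.621 to 41.2. In each of the 5 exceptions, the array that reached down into the stigma range was seedling 4. With seedling 4 left out, a choice made after its values were seen, the stigma arrays lay below all others for 52 of 52. This count too follows largely from the rule, and the share over all tested probe sets without seedling 4 was not counted.

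**Figure D2:**
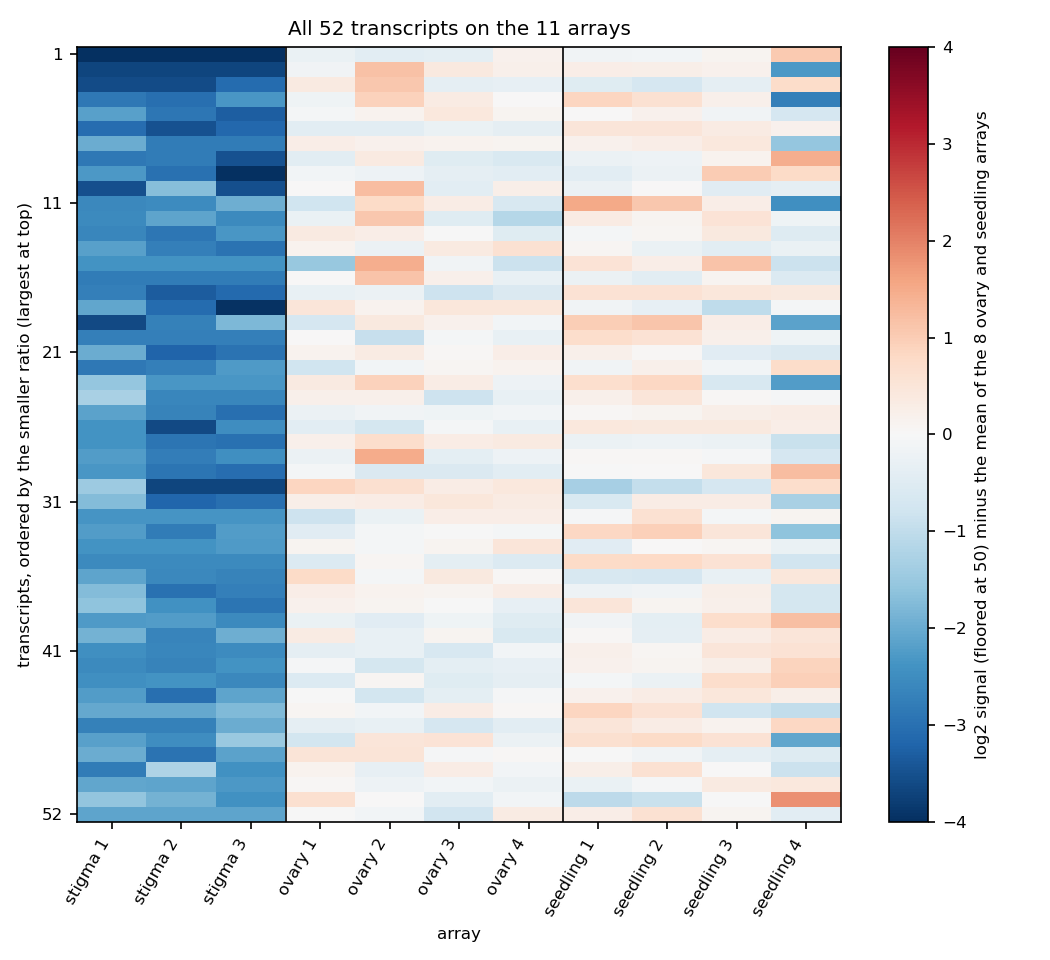
Signal of the 52 transcripts (rows, ordered by the smaller ratio) on the 11 arrays (columns), as log2 of the signal floored at 50 minus the mean of the 8 ovary and seedling arrays. The colour scale ends at -4 and 4. The 3 stigma columns on the left are below the other 8 in nearly every row, and seedling 4 on the right is the lowest seedling array in 29 rows and the highest in 17.

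Of the 52 probe sets, 14 name 1 gene in the supplied annotation, 1 names several and 37 are not listed in it and are unnamed here. The unlisted share was 71.2%, against 38.4% over all probe sets of the array, so the account by gene covers a minority of the transcripts. The 14 genes are given by their locus, and their families come from general knowledge of the Arabidopsis genome. They fall into enzymes and other proteins of the cell wall and the extracellular space, proteins that bind or move small molecules or lipids, and a few inside the cell.

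**Figure D3:**
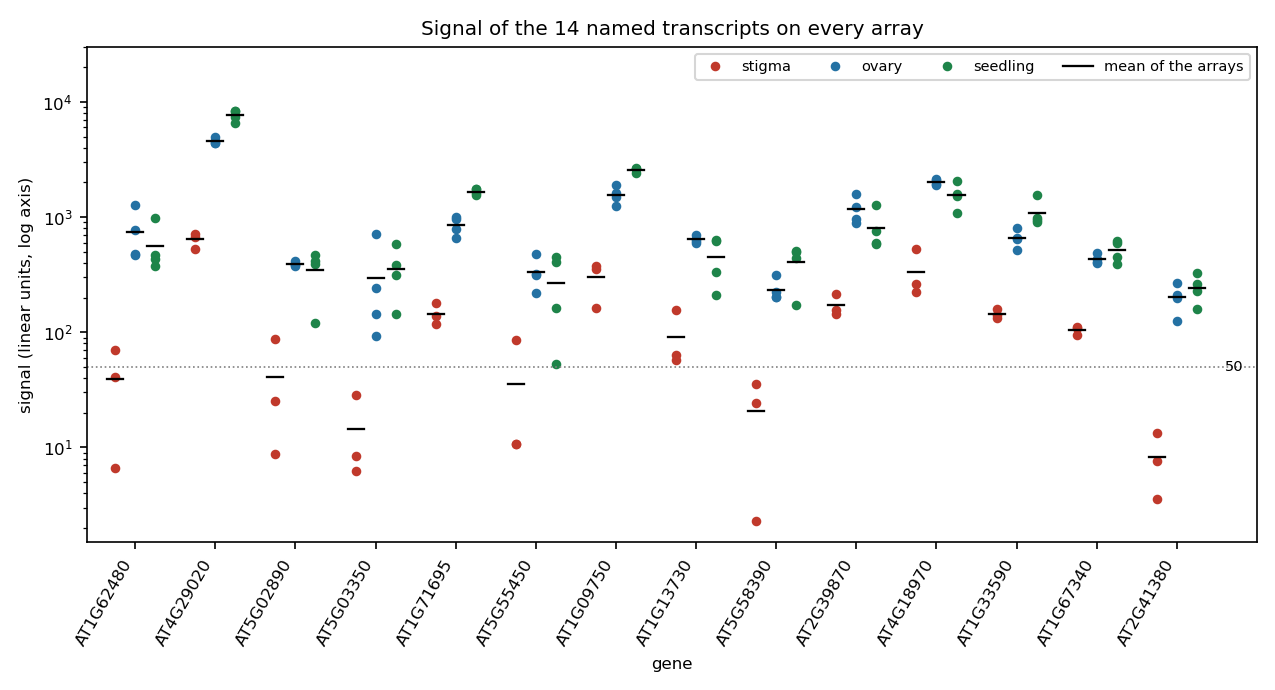
Signal of the 14 transcripts that name 1 gene, on a log axis, with 1 point for each array and a bar at the mean of the arrays of a tissue. Red points are the 3 stigma arrays, blue the 4 ovary arrays and green the 4 seedling arrays, and the dotted line marks 50. Every transcript has its stigma mean below its ovary and seedling means, and for AT5G55450 the highest stigma point, at 85.8, lies above the lowest seedling point, at 53.3.

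Among proteins of the wall and extracellular space, the glycine-rich protein AT4G29020 had the highest signal of the named transcripts. Its arrays read 717.2, 530.5 and 672.0 in stigma, 4394, 4399, 4925 and 4622 in ovary, and 8311, 8273, 7345 and 6590 in seedling. All stigma arrays lay far below the rest, and all seedling arrays lay above all ovary arrays. The ratios to stigma were 7.17 for ovary and 11.9 for seedling, and the log2 differences were -2.82 against ovary and -3.55 against seedling (SE 0.14 each). With 639.9 ± 97.4 in stigma (SD, n = 3), this transcript was low there only by comparison with the other tissues.

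AT1G71695 encodes a class III peroxidase (PRX12), one of the secreted haem enzymes that cross-link or loosen wall polymers with hydrogen peroxide. It read 179.7, 118.0 and 137.8 on the stigma arrays, 960.6, 997.1, 665.1 and 788.2 on the ovary arrays, and 1750, 1759, 1606 and 1558 on the seedling arrays. The 3 tissues did not overlap, in the order stigma, ovary, seedling. Its log2 differences were -2.42 against ovary and -3.39 against seedling (SE 0.17 each), or ratios of 5.87 and 11.5. A second peroxidase gene, AT5G58390, averaged 20.7 ± 16.9 in stigma (SD, n = 3), 234 ± 52.1 in ovary and 406 ± 159 in seedling (SD, n = 4 each), ratios of at least 4.68 and 8.12.

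AT1G09750 encodes an aspartyl protease that is secreted to the apoplast (AED3). It read 379.3, 164.0 and 356.1 in stigma, 1495, 1237, 1899 and 1625 in ovary, and 2658, 2638, 2636 and 2404 in seedling. Again each tissue occupied its own range, with stigma 2 the lowest array of all. The log2 differences were -2.38 against ovary and -3.12 against seedling (SE 0.24 each). AT4G18970, a lipase of the GDSL type, averaged 337 ± 164 in stigma (SD, n = 3), 2029 ± 121 in ovary and 1564 ± 411 in seedling (SD, n = 4 each). AT1G33590, a leucine-rich repeat protein, averaged 144 ± 13.1, 657 ± 121 and 1096 ± 310 in stigma, ovary and seedling.

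Among proteins that bind ions, sugars or lipids, AT1G62480 is related to vacuolar calcium-binding proteins and had the largest smaller ratio of the named genes. It read 41, 6.60 and 70.5 in stigma, 773.4, 1271, 467.2 and 475.3 in ovary, and 431.4, 375.0, 467.0 and 987.6 in seedling. The stigma arrays lay well below all others, while ovary and seedling overlapped, with ovary 2 and seedling 4 the highest arrays of their tissues. The ratios were at least 14.9 for ovary and 11.3 for seedling, and the log2 differences were -3.83 and -3.45.

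The legume lectin family member AT5G03350, whose family binds sugars, read 6.3, 8.5 and 28.3 in stigma, 92.1, 716.0, 240.4 and 145.2 in ovary, and 382.3, 314.9, 581.2 and 144.2 in seedling. The tissues other than stigma overlapped, and the ovary arrays ranged widely around their mean of 298 ± 285 (SD, n = 4). Ovary 2 alone carried much of that mean: the gene no longer met the rule when ovary 2 was left out. The ratios were at least 5.97 for ovary and 7.11 for seedling, with log2 differences of -2.995 and -3.48 (SE 0.57 each).

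AT5G55450 belongs to the lipid-transfer proteins (LTP4.4), small secreted proteins that carry lipids and are known for cuticle and defence functions in the family. It read 85.8, 10.8 and 10.8 in stigma, 323.3, 482.1, 314.0 and 220.1 in ovary, and 406.9, 446.1, 162.2 and 53.3 in seedling. Stigma 1 exceeded seedling 4, so the stigma and seedling arrays overlapped for this gene, and stigma and ovary did not. The log2 differences were -2.98 against ovary and -2.37 against seedling (SE 0.61 each), and -3.60 and -3.55 without stigma 1, ovary 1 and seedling 4.

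Among enzymes and other proteins inside the cell, AT5G02890 belongs to the HXXXD acyltransferases, which transfer acyl groups onto metabolites. It read 87.8, 8.70 and 25.4 in stigma, 418.9, 394.8, 383.5 and 372.9 in ovary, and 394.6, 416.2, 469.2 and 119.6 in seedling. The 4 ovary arrays and the first 3 seedling arrays were close to each other, and seedling 4 lay between them and the stigma arrays. The ratios were at least 7.85 for ovary and 6.998 for seedling, with log2 differences of -3.07 and -2.76 (SE 0.46 each).

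AT1G13730 encodes a protein with an NTF2 domain and an RNA-binding domain. It read 154.7, 57.1 and 63.5 in stigma, 600.2, 623.0, 699.4 and 640.9 in ovary, and 334.4, 624.1, 628.4 and 209.2 in seedling. Ovary arrays were tightly grouped, seedlings 1 and 4 were lower than seedlings 2 and 3, and no stigma array reached another tissue. Its log2 differences were -2.70 against ovary and -2.08 against seedling (SE 0.36 each), and -2.76 against seedling without stigma 1, ovary 1 and seedling 4. AT2G41380, from a family of S-adenosylmethionine-dependent methyltransferases, had the lowest stigma mean of the 52 at 8.20 ± 4.93 (SD, n = 3), with 201.05 ± 57.9 in ovary and 244 ± 68.6 in seedling (SD, n = 4 each). AT1G67340, with an F-box and a MYND zinc finger, averaged 104 ± 8.89, 431 ± 40.5 and 517 ± 114 in stigma, ovary and seedling, and AT2G39870, of unknown function, averaged 172 ± 36.8, 1164 ± 319 and 798 ± 319.

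The transcripts with the largest ratios of the whole set are unnamed. They fall outside the rule for named genes and were picked after their values had been seen. Probe set 265194_at read 11.3, 45.3 and 17.1 in stigma, 2048, 1868, 1914 and 2829 in ovary, and 2234, 2306, 2658 and 5134 in seedling, with ratios of at least 43.3 and 61.7. Probe set 266326_at averaged 31.7 ± 16.7 in stigma (SD, n = 3) and read 582.4, 1448, 851.3 and 743.4 in ovary, and 770.2, 759.7, 723.6 and 130.9 in seedling, with ratios of at least 18.1 and 11.9. Seedling 4 stood apart in both, as the highest seedling array for one and the lowest for the other.

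At the edge of the rule, the values change little across the threshold. Just inside lay AT2G41380 with a smaller ratio of 4.02, an unnamed probe set with 4.02 and AT1G67340 with 4.14. Just outside lay AT3G13650 with 3.99, from means of 57.8 in stigma, 413.8 in ovary and 230.8 in seedling, and a pair of unnamed probe sets with 3.93 each. A further 3 probe sets met the ratios and were left out by their symbol. They were XTH16, XTH32 and GSTU20, with smaller ratios of 6.63, 5.13 and 8.43. XTH16 and XTH32 remodel xyloglucan in the cell wall, and GSTU20 is a glutathione transferase.

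Between ovary and seedling, which the rule held to within 2-fold, the mean was higher in ovary for 20 transcripts and higher in seedling for 32, and the larger mean exceeded the smaller by a median of 1.43-fold. The median log2 difference, ovary minus seedling, was -0.17 for the 52 and 0.12 for all tested probe sets. None of the 52 was called between these tissues by limma, a count bounded by the rule, against 22.8% of all tested probe sets. At an unadjusted p under 0.05, 15 of the 52 passed, against 57.5%. All seedling arrays lay above all ovary arrays for 9 transcripts and all ovary arrays above all seedling arrays for 2, while the tissues overlapped for the other 41, and 47.6% of all tested probe sets did not overlap. AT4G29020, AT1G71695 and AT1G09750 are among the 9.

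The median SD between stigma arrays on the log2 scale was 0.53 for the 52, 0.33 for 2670 other probe sets within the middle range of their stigma signal, and 0.20 over all tested probe sets. Between ovary arrays the same medians were 0.28, 0.20 and 0.22, and between seedling arrays 0.39, 0.26 and 0.27. Without seedling 4, the seedling medians were 0.24 for the 52 and 0.19 over all tested probe sets.

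The stigma array that read highest was stigma 1 for 28 of the 52 (53.8%), against 34.7% of all tested probe sets, and the one that read lowest was stigma 2 for 25 (48.1%), against 26.9%. Stigma 1 is also the array with the highest GAPDH ratio, and the part of RNA quality in the stigma values was not tested beyond a fit with this ratio as a covariate. In that fit, 49 of the 52 remained called against ovary and 44 against seedling, with medians of -2.70 and -2.998. Over all tested probe sets, it called 2411 and 3439 in either direction, against 2450 and 4053 in the main fit. The ratio itself ran from 1.09 to 2.27 in stigma, 0.70 to 1.11 in ovary and 0.25 to 0.55 in seedling. RNA quality and tissue therefore cannot be told apart by this fit. Seedling 4 was at most 0.5 times the mean of the other 3 seedlings for 13 of the 52 (25%), against 6.31% of all tested probe sets, and at least 2 times that mean for 7 (13.5%), against 4.92%. The 13 include AT5G58390, AT5G55450, AT5G03350, AT5G02890 and AT1G13730, and the 7 include AT1G62480. The other 32 transcripts lay within 2-fold of that mean on seedling 4. These shares were not tested.

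The arrays were scanned in 4 periods, here called runs. Run A held stigma 1 with ovary 1 and 2, and run B held the other stigma and ovary arrays. Run C held seedlings 1 and 2, and run D seedlings 3 and 4. No run held both seedling and pistil arrays. Tissue and run therefore cannot be told apart in any comparison with seedling, including those that the rule used. Among stigma and ovary arrays, run A was all chip lot 1 and run B all chip lot 2, so run and lot cannot be told apart there. Seedling 1 was chip lot 1, seedling 2 chip lot 2, and seedlings 3 and 4 were chip lot 3. The difference between seedling runs therefore cannot be told apart from lot either. Fits within a run and within its lot compare the same stigma and ovary arrays, and both are counted among the alternative settings below. Run differences within a tissue were not used by the rule and were tested in limma over all 15524 probe sets. In the pistil, run B minus run A, none of the 52 was called, against 0.393% of all tested probe sets, and the smallest adjusted p was 0.0571. At an unadjusted p under 0.05, 8 passed (15.4%), against 20.8% of all tested probe sets. All 8 were lower in run B, as were 36.9% of all probe sets that passed. The median difference was -0.21 for the 52 and 0.04 for all tested probe sets. For the 52 it depended on the setting. It was -0.12 without stigma 1, 0.006 with the GAPDH ratio as covariate and -0.34 with the replicate number as a block.

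In seedlings, run D minus run C, 4 of the 52 were called (7.69%), against 4.46% of all tested probe sets, 2 higher and 2 lower in run D. At an unadjusted p under 0.05, 17 passed, or 32.7%, against 28.9%. The called gene with a name was AT5G55450, the lipid-transfer protein, with 162.2 and 53.3 on the run D arrays against 406.9 and 446.1 on the run C arrays. Both run D arrays lay below both run C arrays, by -1.98 on the log2 scale (SE 0.45, limma adjusted p = 0.0197). The other 3 called probe sets are unnamed, with log2 differences of 1.82, 1.17 and -1.49. These calls rest on few arrays and on a spread shared with the other tissues. With the seedling arrays alone, none of the 52 was called, and 8 of all tested probe sets were, against 693 in the main fit. Leaving out any seedling leaves a single array in its run. The median difference of the 52 was then -0.14, -0.13, -0.29 and -0.05 without seedlings 1, 2, 3 and 4, against -0.23 with all.

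Whether the difference between stigma and ovary itself changed between runs A and B was tested in the same way. Run A holds a single stigma array, stigma 1, which is also the one with the high GAPDH ratio, so the change between runs cannot be told apart from that array, and its spread is assumed to be that of the other groups. No transcript of the 52 was called, against 0.00644% of all tested probe sets, and the smallest adjusted p was 0.290 in limma. At an unadjusted p under 0.05, 13 passed (25%), against 7.97%, and for 10 of these 13 stigma lay further below ovary in run B. Over all tested probe sets that passed in this way, 54.5% had that direction. Within run A alone, the median difference of the 52 between stigma and ovary was -2.28, and within run B it was -2.57. All 52 stayed lower in stigma than in ovary and in seedling when stigma 1, ovary 1 and seedling 4 were left out together, with medians of -2.63 and -2.82.

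The peroxidase pair was set against the other genes of its family. This list of 73 loci was drawn up after the members were known, so its counts support nothing by themselves. Of the 73, 55 have a named probe set and 37 were tested. Against ovary, 6 were called higher and 5 lower in stigma, with a median log2 difference of 0.16. Against seedling, 5 were higher and 20 lower, with a median of -1.16. AT1G71695 and AT5G58390 were the only ones called lower in stigma than in both other tissues, which the rule fixes for them, and none of the 35 other tested peroxidase genes was. At the opposite end, AT5G19880 averaged 15939 ± 2836 in stigma (SD, n = 3), 538 ± 844 in ovary and 11.9 ± 6.84 in seedling (SD, n = 4 each). Ovary 1 read 1802 and the other ovary arrays 84.1 to 179, and without ovary 1 the log2 difference of stigma minus ovary was 6.95, against 5.99 with it.

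**Figure D4:**
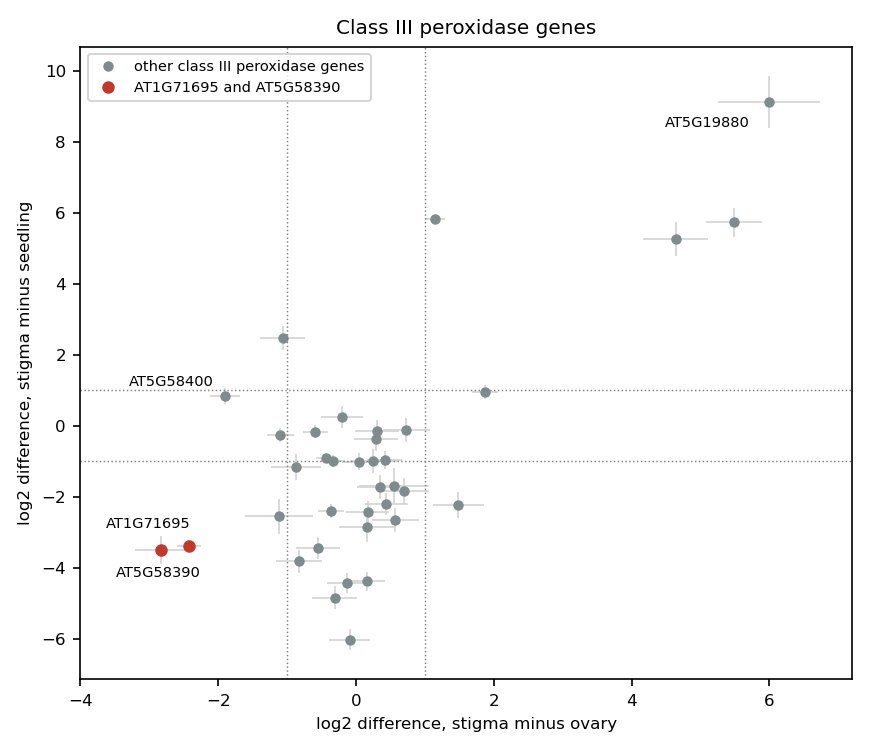
Log2 differences of the 37 tested class III peroxidase genes, stigma minus ovary on the horizontal axis and stigma minus seedling on the vertical axis, with standard errors of the fit as bars. Dotted lines mark a 2-fold difference. AT1G71695 and AT5G58390 lie at the lower left, AT5G19880 at the upper right, and most of the others fall near 0 against ovary and below 0 against seedling.

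Genes that lie next to a member on the chromosome, by the order of the TAIR10.1 gene table, were also examined. Named probe sets existed for 11 such neighbours of 8 members, 9 of them were tested, and 3 were called lower in stigma than in both other tissues, against 3.9% of all tested probe sets. AT4G29030, beside AT4G29020, averaged 475 ± 421 in stigma (SD, n = 3), 4755 ± 829 in ovary and 869 ± 251 in seedling (SD, n = 4 each), and was thus highest in ovary. Its log2 differences were -3.58 against ovary (SE 0.40, limma adjusted p = 2.1e-05) and -1.12 against seedling (limma adjusted p = 0.034), and 8 of 24 alternative settings ended the call against seedling. Among these were the fits without stigma 2, at -0.82, without stigma 3, at -0.77, and without seedling 1, 2 or 3. Over the 24 settings, the smallest difference in size against seedling was -0.09. AT1G33600, beside AT1G33590, averaged 46.8 ± 29.99 in stigma (SD, n = 3), 126 ± 37.0 in ovary and 513 ± 86.5 in seedling (SD, n = 4 each), and the log2 differences were -1.25 (limma adjusted p = 0.0077) and -3.16 (limma adjusted p = 2.5e-06). Of 26 alternative settings, 6 ended the call against ovary, among them the fit without stigma 3 at -0.83. AT1G67330, beside AT1G67340, averaged 14.9 in stigma, 84.7 in ovary and 849 in seedling, with log2 differences of -1.58 (limma adjusted p = 0.0014) and -4.75 (limma adjusted p = 4.3e-08). Its call against ovary was lost under 2 of 26 alternative settings, within run B and within chip lot 2, at -0.93, which compare the same arrays. Both genes were thus far higher in seedling than in ovary. Neighbouring genes of like sequence, as AT1G33590 and AT1G33600 or the peroxidases AT5G58390 and AT5G58400, could share signal on the array, and their values are uncertain to that extent. AT5G58400 had another pattern, with 151 ± 33.4 in stigma (SD, n = 3), 608 ± 95.6 in ovary and 77.4 ± 22.0 in seedling (SD, n = 4 each).

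Lists of genes for cell types and processes of the 3 tissues, with pollen and reference genes, were examined beside the 52. There were 18 lists with 728 gene names, of which 80 entries were tested. Most names had no named probe set in the supplied annotation and were not looked at. Named probe sets existed for 0 of 48 names in the transport list, 3 of 50 for DNA replication and 6 of 53 for the cell cycle. The pollen list had 10 of 16 and the stigma and papilla list 10 of 18. None of the 14 transcripts with 1 gene name was in any list, and the 37 unnamed ones could not be looked up. In 15 of the 18 lists, no tested gene was called lower in stigma than in both other tissues. The exceptions were the stomatal lineage, meristem and organ polarity, and cell cycle lists, with 2, 2 and 1 such genes. Over all tested probe sets, 3.9% were called lower than in both tissues, 9.51% lower than in ovary and 15.1% lower than in seedling. The transport list had no tested gene and the others had 1 to 10, so the counts by list are descriptions only.

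Of the stomatal list, 4 genes had a named probe set and 3 were tested. Against ovary 2 were lower in stigma, and against seedling all 3 were. FMA was called only against seedling. Its log2 differences were -0.44 against ovary (limma adjusted p = 0.18) and -1.14 against seedling (limma adjusted p = 0.0016). SPCH, the transcription factor that starts the stomatal lineage, read 37.3, 33.3 and 28.2 in stigma, 221.2, 167.9, 102.8 and 186.6 in ovary, and 232.3, 217.4, 129.1 and 152.9 in seedling. The stigma arrays lay below all others, and ovary and seedling overlapped. Its log2 differences were -1.86 against ovary (SE 0.28, limma adjusted p = 0.00019) and -1.97 against seedling (limma adjusted p = 5.5e-05). It did not meet the rule of the 52, since its ovary and seedling means of 169.6 and 182.9 were under 4 times the floor of 50.

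STOMAGEN, a secreted peptide that promotes stomata, averaged 280 ± 86.9 in stigma (SD, n = 3), 597 ± 64.1 in ovary and 1094 ± 170 in seedling (SD, n = 4 each). Its log2 differences were -1.08 against ovary (limma adjusted p = 0.00071) and -1.93 against seedling (limma adjusted p = 2.3e-06). Under 7 of 26 alternative settings, among them both other scalings and the arrays without stigma 2 or without stigma 3, the difference from ovary fell short of 2-fold, the lowest in size being -0.73. The summed signal of the 4 genes was 431.9 to 586.2 in stigma, 1013 to 1170 in ovary and 1475 to 1906 in seedling. STOMAGEN had the highest mean of the 4 in each tissue and leads this sum, which also includes MUTE, a gene that was not tested. The part of these genes in the levels of the 52 was not tested.

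The polarity genes YAB3 and YAB5, which mark the lower side of lateral organs, were among the 8 tested genes of the meristem and organ polarity list. YAB3 averaged 96.6 ± 47.8 in stigma (SD, n = 3), 277 ± 48.3 in ovary and 594 ± 68.0 in seedling (SD, n = 4 each), and its log2 differences were -1.47 (limma adjusted p = 0.0010) and -2.53 (limma adjusted p = 5.1e-06). YAB5 averaged 68.2 ± 13.2, 206 ± 48.6 and 363 ± 75.5 in stigma, ovary and seedling, and its log2 differences were -1.37 (limma adjusted p = 0.00044) and -2.14 (limma adjusted p = 4.3e-06). Against ovary 3 genes of this list were lower and none higher in stigma, and against seedling 2 were lower and 1 higher. Within run A alone, where stigma 1 is the only stigma array, the call of YAB3 against ovary was lost (limma adjusted p = 0.11).

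Of 6 tested cell cycle genes, 4 were lower and 1 higher in stigma than in ovary, and 1 was lower and 1 higher than in seedling. BUBR1, a spindle checkpoint protein, was lower than both, with 43.3 ± 35.1 in stigma (SD, n = 3), 150 ± 32 in ovary and 123 ± 42.3 in seedling (SD, n = 4 each). Its log2 differences were -1.60 (limma adjusted p = 0.0039) and -1.32 (limma adjusted p = 0.0084). The call against seedling was lost without stigma 2, at -0.94, within chip lot 1, at -0.47, and with a pseudocount of 50, at -0.92. In chip lot 1, stigma 1 and seedling 1 were the only arrays of these tissues. Within run A the call against ovary was lost too, at -0.94 (limma adjusted p = 0.12). Genes of DNA replication followed another course, with all 3 tested genes lower in stigma than in ovary and none lower than in seedling. The 10 tested photosynthesis genes showed the reverse, with none lower than in ovary and 7 lower than in seedling.

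The remaining lists showed no tested gene that was lower in stigma than in both. Histone genes were lower than in ovary in 4 of 7 cases and lower than in seedling in 1, flavonoid genes in 2 and 0 of 3, lipid transfer and cuticle genes in 1 and 1 of 5, and ovule genes in 1 and 0 of 4. Cell wall genes were lower than in ovary in 0 of 5 and than in seedling in 1, auxin genes in 0 and 2 of 5, and root genes in 0 and 2 of 2. Vascular, pollen, hormone and reference lists had 3, 2, 1 and 4 tested genes and none lower in stigma than in either tissue, and the transport list had no tested gene. Of 10 tested stigma and papilla genes, none was lower in stigma, 6 were higher than in ovary and 5 higher than in seedling.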

How the data were processed

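The deposited values are linear intensity values, 1 per probe set and array, which the authors had scaled: the 2% trimmed mean was 500.03 to 500.04 on every array. The scaling is inferred from this, and the program behind it is not stated. The deposited run information files (unit other) hold no expression values and gave only the scanning period and chip lot of each array. The 64 control probe sets were set aside. Means and ratios used the linear scale. Differences were fitted in limma 3.58.1 (R 4.3.3) on log2(signal + 17.2), the pseudocount being the 10th percentile of the signals, with a mean per tissue over 11 arrays, trended moderated variances and Benjamini-Hochberg adjustment. The filter of 144.2 is their 40th percentile. The tissue fit had 8 residual degrees of freedom, the fit with run terms 6 and the interaction fit 5. The fits were tested on simulated data. No further scaling was applied.

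The members and gene lists were chosen with earlier results of these data known. Named are members with 1 gene: the 8 with the largest smaller ratio by array, the others by mean, the 3 nearest inside and outside the threshold, members called in a run contrast, and up to 3 called genes of each list with the largest difference from ovary, of which the text names those lower than both tissues. Peroxidases, neighbours, unnamed probe sets, and FMA and MUTE of the stomatal list were chosen after their values were seen. The annotation gives 1 gene for 13513 probe sets, and 13436 of these were found in the reference gene table. For arrays, their number limits the precision. Alternatives covered the pseudocount, filter, scaling, blocks, a covariate and left-out arrays.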

Additional observations from a re-analysis of the deposited data

Results flagged for a closer look

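In groups of 4 arrays, an array was singled out where its gap to the nearest other array, divided by the whole range, passed the 95% critical value of Dixon's test. The ovary and the seedling arrays were examined for 36 measures: the 14 named transcripts, the leading pair of unnamed ones, their median signal, the control ratios of GAPDH and actin, and the other genes whose levels by array or mean are given above. Chance alone gives about 1 such array in 20 groups, and 8 were found in 72 groups. Among the 14 named transcripts and the leading pair of unnamed ones, the 5 found were all seedling 4. The rest of the 52 were not examined in this way, so outlying arrays among them are not covered. Seedling 4 was the highest seedling array for AT1G62480 at 987.6, where the other seedlings read 375.0 to 467.0, for AT1G33590 at 1558, and for the unnamed probe set 265194_at at 5134. It was the lowest for AT1G09750 at 2404, where the other seedlings read 2636 to 2658, and for the unnamed probe set 266326_at at 130.9. The other 3 were ovary 1, in genes that were highest in stigma. It was the highest ovary array for SLR1 (AT3G12000) at 1832, for AT2G33850 at 3960, where the other ovary arrays read 79.2 to 94.6, and for the peroxidase gene AT5G19880 at 1802. The groups of 3 stigma arrays were not examined in this way.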

How the results depend on the processing

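No difference of the 14 named transcripts between stigma and another tissue changed sign. The rule required ratios of at least 4 on these arrays, so this outcome was largely fixed by the choice. Of 698 values under the alternatives, 627 moved by less than the spread between arrays and 71 by more. The number of transcripts that met the rule was 30 with a floor of 100, 117 with no floor, 126 at a ratio of 3, 3 at a ratio of 8, 31 with a range of 1.5-fold and 81 with no range, against 52. Leaving out each array in turn gave 49 to 73, with the highest number without stigma 1, and 45 to 52 of the 52 were kept. AT1G67340, AT1G71695 and AT2G41380 dropped out under both other scalings. Without a single array the named genes that left were AT4G18970 (stigma 2), AT1G67340 (stigma 3 or ovary 1), AT1G71695 (ovary 1 or 2), AT2G41380 (ovary 1 or 4), AT5G03350 (ovary 2), and AT2G39870 and AT5G58390 (seedling 4). With no fold threshold, the calls over all probe sets were 5381 for stigma and ovary (2450 with it), 7644 for stigma and seedling (4053), 8050 for ovary and seedling (3537), 157 for pistil runs (61) and 1802 for seedling runs (693). The pistil run count was 32 with a pseudocount of 50, 28 with no filter, 14 with the stricter filter, 16 with quantile scaling, 40 with equal medians, 1 with the GAPDH ratio as covariate and 217 without stigma 1, ovary 1 and seedling 4. The seedling run count was 8 with seedling arrays alone and 279 without those 3 arrays. The count for the change of stigma minus ovary between runs was 1, and 2 with no filter or the stricter one, 0 with quantile scaling or the GAPDH ratio, and 27 with pistil arrays alone. Leaving out each array gave 2317 to 2507, 3956 to 4092, 3436 to 3714, 0 to 124, 96 to 1926 and, over 10 fits, 0 to 35 calls in these 6 comparisons, in the order named. Apart from the fewer arrays or genes in some fits, the cause was not tested.

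The replicate block, with the number in the titles as a block, gave 2514, 4039 and 3552 calls between tissues and 0 in each run comparison. Deviations of same-numbered arrays from their tissue mean correlated at 0.22, -0.03 and 0.26 for stigma and ovary. The values were 0.06, 0.02 and 0.05 for stigma and seedling, and -0.08 to 0.07 for ovary and seedling. Arrays of unlike number were not compared in this way, so these values cannot show whether the numbers pair the samples. Chip lot as a block could not be fitted for the run comparisons, nor the change between runs without stigma 1. For arrays, dim signals limit precision: 16 of the 52 stigma means were under 50.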
